A study of Mus musculus with 12 samples.

Results

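The genes described here are 10 grouped under the name of collagens and fibroblast matrix genes. They include the fibrillar collagen chains Col1a1, Col1a2 and Col3a1, the matrix proteins Dpt, Fbln1 and Npnt, and the crosslinking enzyme Loxl1. The others are the membrane protein Mxra8, the transcription factor Tcf21 and the actin-severing protein Gsn, so not all of the 10 encode matrix. The 10 were chosen by name, with their differences between intact and resected mice in these same arrays already known. All 10 were measured, each by 1 probe set, among 19505 genes with a symbol and 22206 probe sets in all. The differences of each day from intact therefore describe the genes that were picked and carry no test here.

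The samples were RNA of alveolar macrophages, the resident phagocytes of the air spaces, taken from the lungs of male C57 Black mice with magnetic beads carrying an antibody to Siglec-F. Siglec-F, a lectin for sialic acids, is found on alveolar macrophages and also on eosinophils. One group kept an intact liver, and the other 3 groups had 70% of the liver removed and were studied 1, 3 or 7 days later. Each group held 3 biological replicates on 1 Clariom S mouse array each, 12 in all. The labels do not give the animals' age, whether a replicate was 1 animal or a pool, or a sham operation for the intact group.

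Fibrillar collagens I and III form the tensile fibres of lung connective tissue. Fibroblasts secrete them as procollagen, which is trimmed outside the cell, assembled into fibrils and stabilised by crosslinks, while small matrix proteins bind the fibrils and set their spacing. Macrophages engulf and degrade collagen and are not regarded as its main source. Bead sorting keeps what the antibody holds and whatever adheres to it, so RNA of other lung cells can be present in such samples. In bulk RNA, fewer cells of a type and less RNA per cell cannot be told apart.

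The sequences just upstream of 4 of the genes are shown: Col3a1, Dpt and Mxra8, whose arrays lay farthest below the intact arrays over the 3 days, and Col1a2, a collagen chain whose arrays overlapped them on 2 of the days. They are the 250 bases before the start of the RefSeq transcript on GRCm38.p6, 5′ to 3′, with any match to 5 searched motifs in capitals. The motifs were searched on both strands. They were the promoter element CCAAT, the core promoter element TATAAA, the E-box core CAGCTG, which reads the same on both strands, the SMAD-binding core CAGAC, and the GC box GGGCGG. None of the 5 overlaps another as a string of letters in these 4 sequences. Col3a1 lies at chr1:45311288-45311537 (+), Dpt at chr1:164796413-164796662 (+), Mxra8 at chr4:155839430-155839679 (+) and Col1a2 at chr6:4505368-4505617 (+).
Col3a1: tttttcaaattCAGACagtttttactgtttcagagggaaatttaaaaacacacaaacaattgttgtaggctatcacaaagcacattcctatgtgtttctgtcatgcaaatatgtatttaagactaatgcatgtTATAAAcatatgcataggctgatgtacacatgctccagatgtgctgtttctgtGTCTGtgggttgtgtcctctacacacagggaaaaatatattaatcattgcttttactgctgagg
Dpt: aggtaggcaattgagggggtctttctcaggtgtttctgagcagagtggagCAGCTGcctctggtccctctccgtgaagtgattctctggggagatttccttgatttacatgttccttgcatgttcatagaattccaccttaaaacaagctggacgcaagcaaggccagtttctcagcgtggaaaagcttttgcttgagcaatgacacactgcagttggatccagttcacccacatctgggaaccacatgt
Mxra8: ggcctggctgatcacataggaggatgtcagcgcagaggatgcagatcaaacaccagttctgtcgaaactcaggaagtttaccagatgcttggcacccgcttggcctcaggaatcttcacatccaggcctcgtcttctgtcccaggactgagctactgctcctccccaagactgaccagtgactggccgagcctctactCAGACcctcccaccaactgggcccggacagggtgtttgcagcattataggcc
Col1a2: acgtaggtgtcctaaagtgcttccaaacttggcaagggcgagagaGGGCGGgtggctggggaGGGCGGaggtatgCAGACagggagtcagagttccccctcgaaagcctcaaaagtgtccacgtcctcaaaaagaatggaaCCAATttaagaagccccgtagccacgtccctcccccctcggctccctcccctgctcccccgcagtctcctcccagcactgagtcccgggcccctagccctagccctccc

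The RefSeq promoter table held 8 of the 10 genes, in 12 entries, and had none for Col1a1 and Loxl1. The windows ranged widely in base composition. Col3a1 had a GC content of 35.2% and Col1a2 of 62.0%, with Dpt at 48.8% and Mxra8 at 56.8%, against a median of 52.4% over the 32851 entries of the table. TATAAA was found only in the Col3a1 window among the 8 genes, and in 12.4% of all entries. CAGAC was found in 6 of the 8 genes (Col1a2, Col3a1, Mxra8, Fbln1, Tcf21 and Gsn) and in 42.2% of all entries. CAGCTG was found in 3 (Dpt, Fbln1 and Gsn) and in 13% of all, GGGCGG in 4 (Col1a2, Fbln1, Npnt and Gsn) and in 32.7%, and CCAAT in 2 (Col1a2 and Gsn) and in 33.9%. The count for a gene covers all its entries, so a gene with several start sites had more chances to match. A match is a string of letters and not a known site.

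Signals are given as log2 values made by the authors with RMA. The intron control probe sets, which match unspliced sequence and serve as a background level, had medians of 2.39 to 2.76 per array and upper 95% limits of 5.01 to 5.69. On 3 arrays (day 1 replicate 2, day 3 replicate 1 and day 7 replicate 2) exon and intron controls were less well separated, with an area under the curve of 0.809 to 0.837 against 0.852 to 0.888 on the other 9. These 3 are called the arrays of weak control separation, and counts of calls without them are given beside those on all arrays. The sorted cells carried their label: all 12 alveolar macrophage markers examined had group means above the intron upper limit in every group, with Siglecf at 8.79 ± 0.13 (log2, SD, n = 3) and Pparg at 8.83 ± 0.11 in intact samples. With 3 arrays per group the precision of each mean is limited, and the p-values measure the spread between these replicates.

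Every one of the 10 genes had a lower mean after resection than in intact samples, on each of the 3 days. The median of their differences from intact was -1.28 at day 1, -1.20 at day 3 and -1.34 at day 7 (log2), while the median over all 22206 probe sets was -0.011, 0.0015 and -0.0091. A difference below 0 was also found for 51.5%, 49.7% and 51.7% of all probe sets on these days. A difference below -1 was found for 7 of the 10 genes on each day, and for 1.92%, 0.833% and 1.41% of all probe sets. In 8 of the 10 genes on each day, all 3 arrays lay below all 3 intact arrays, a pattern that 8.94% of all probe sets showed at day 1, 6.68% at day 3 and 8.15% at day 7. Since the genes were chosen with these contrasts known, and the contrasts share the intact arrays, the counts describe the choice and support nothing further.

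**Figure D1:**
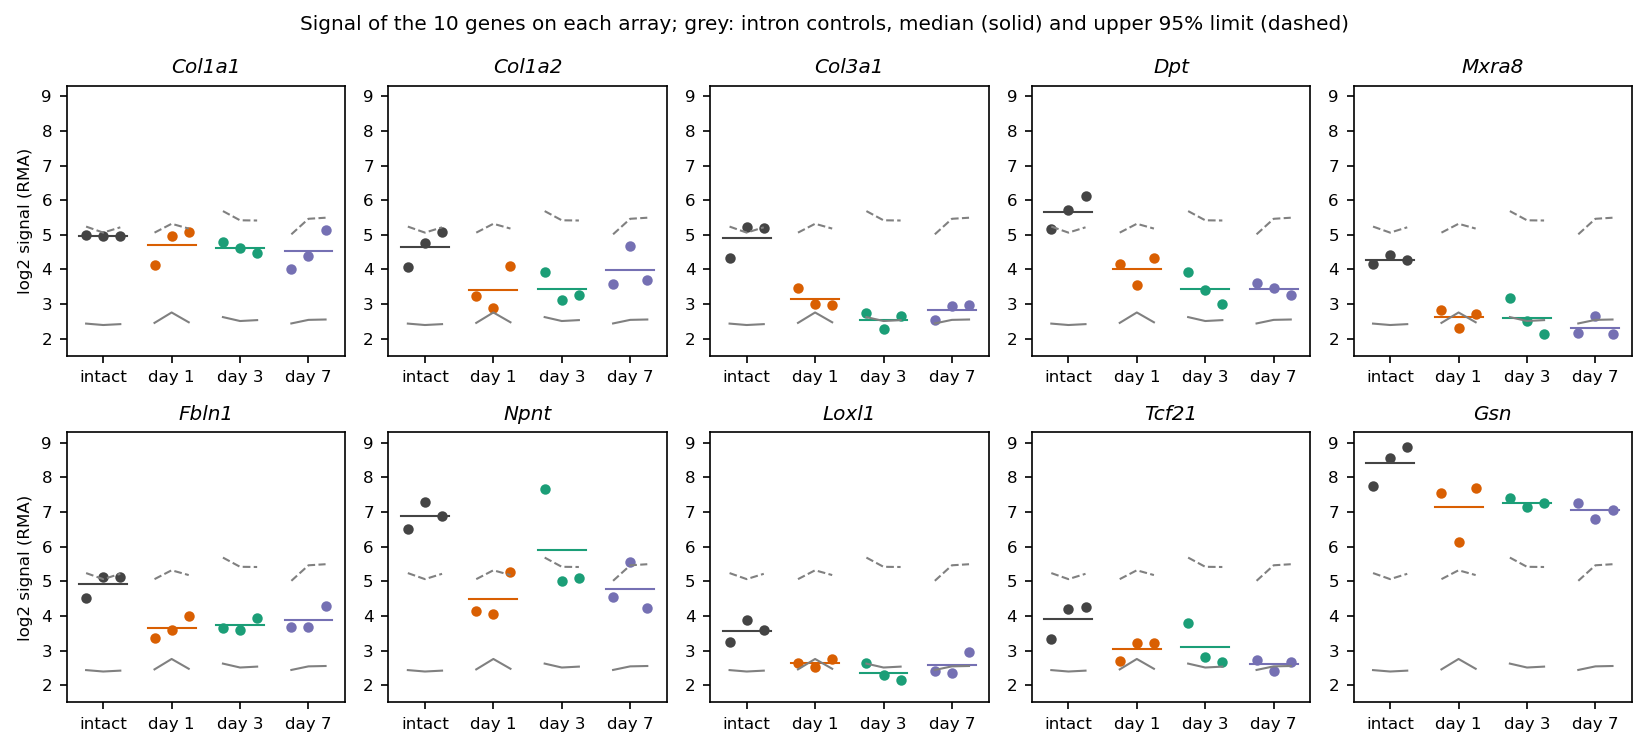
Log2 signal of each of the 10 genes (1 panel per gene) on each of the 12 arrays, grouped as intact, day 1, day 3 and day 7 after resection. Points are arrays, coloured bars are group means, and the grey lines are the median (solid) and upper 95% limit (dashed) of the intron controls. Col3a1 had a mean of 4.92 in intact samples and lay at the level of the intron median at day 3, while Gsn was above the dashed line on all 12 arrays.

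Among the collagens, Col3a1, the single chain of collagen III, had the widest gap between intact and resected samples. It stood at 4.34, 5.23 and 5.19 on the intact arrays, at 3.45, 3.01 and 2.99 at day 1, at 2.73, 2.26 and 2.65 at day 3 and at 2.53, 2.95 and 2.97 at day 7. All 9 arrays after resection lay below the lowest intact array, with a gap of 0.88, 1.61 and 1.37 between the groups on the 3 days. The differences from intact were -1.77, -2.37 and -2.10 (± 0.25, SE), or 3.41-fold, 5.17-fold and 4.29-fold lower. At day 3 only 3 of the 22206 probe sets had a more negative difference. Relative to the intron median the day 3 mean was -0.0064, so at that time the signal was not distinct from background and the true difference may be larger than the one given.

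The chains of collagen I behaved less evenly. Col1a2, which encodes the alpha-2 chain, stood at 4.08, 4.77 and 5.09 in intact samples, 3.24, 2.89 and 4.11 at day 1, 3.92, 3.13 and 3.26 at day 3 and 3.58, 4.66 and 3.70 at day 7. Its differences were -1.23, -1.21 and -0.66 (± 0.38). Day 1 replicate 3 and day 7 replicate 2 reached into the intact range, so the groups were apart only at day 3, by 0.16. Col1a1, the alpha-1 chain, stood at 4.98, 4.95 and 4.96 in intact samples, 4.11, 4.95 and 5.07 at day 1, 4.78, 4.63 and 4.48 at day 3 and 4.02, 4.40 and 5.14 at day 7. The intact arrays were within 0.016 (SD) of each other, while the SD was 0.52 at day 1 and 0.57 at day 7. The differences of -0.25, -0.33 and -0.44 (± 0.29) were the smallest of the 10 genes on each day, and 1 array each at day 1 and day 7 exceeded all intact arrays. At day 1 its difference was 0.048 without day 1 replicate 1 and 0.0076 after quantile normalization, so the direction at that time rests on 1 array and on the scaling. Col1a1 was below the intron upper limit on all 12 arrays.

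Dermatopontin, Dpt, a small protein that binds decorin and collagen fibrils, stood at 5.17, 5.72 and 6.13 in intact samples. It stood at 4.15, 3.56 and 4.33 at day 1, 3.93, 3.39 and 3.01 at day 3 and 3.60, 3.45 and 3.27 at day 7. Every array after resection lay at least 0.84 below the lowest intact array, and the gap was 1.24 at day 3 and 1.57 at day 7. The differences were -1.66, -2.23 and -2.23 (± 0.29), or 3.16-fold, 4.69-fold and 4.70-fold lower. The day 7 arrays lay close together, with an SD of 0.16 against 0.48 in intact samples.

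Fibulin-1, Fbln1, a glycoprotein of elastic fibres and basement membranes, stood at 4.52, 5.13 and 5.14 in intact samples, 3.36, 3.59 and 4.0 at day 1, 3.66, 3.58 and 3.94 at day 3 and 3.68, 3.69 and 4.27 at day 7. All groups after resection lay below the intact arrays. The differences of -1.28, -1.20 and -1.05 (± 0.24) were of similar size on the 3 days.

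Nephronectin, Npnt, an integrin ligand of basement membranes, was the most variable of the 10. It stood at 6.51, 7.29 and 6.87 in intact samples, 4.16, 4.06 and 5.28 at day 1, 7.66, 5.0 and 5.09 at day 3 and 4.55, 5.56 and 4.23 at day 7. The day 1 and day 7 arrays were all below the intact arrays, by at least 1.23 and 0.96. Day 3 replicate 1, at 7.66, was the highest of all 12 arrays, and the other day 3 arrays were near the day 1 level. The differences were -2.39, -0.98 and -2.12 (± 0.62), or 5.25-fold, 1.97-fold and 4.34-fold lower. Without day 3 replicate 1 the day 3 difference was -1.85. On that array the mean of the 6 measured type 1 alveolar cell markers was also the highest of the 12, at 6.12 against 5.46 to 6.05 in intact samples, and their part in the Npnt value was not tested.

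Loxl1, a lysyl oxidase-like enzyme that crosslinks elastin and collagen, stood at 3.25, 3.88 and 3.58 in intact samples, 2.65, 2.53 and 2.77 at day 1, 2.63, 2.30 and 2.15 at day 3 and 2.41, 2.36 and 2.95 at day 7. No array after resection overlapped the intact arrays. The differences were -0.92, -1.21 and -1.0 (± 0.22). The signal was low throughout: Loxl1 exceeded the intron median on 7 of 12 arrays and the intron upper limit on none, and its day 3 mean lay 0.20 below the intron median.

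Mxra8, a membrane protein with immunoglobulin domains found on mesenchymal cells, stood at 4.15, 4.43 and 4.27 in intact samples. It stood at 2.84, 2.30 and 2.70 at day 1, 3.16, 2.52 and 2.14 at day 3 and 2.16, 2.64 and 2.14 at day 7. The intact arrays were close together (SD 0.14), and every array after resection lay at least 0.98 below the lowest of them. The differences were -1.67, -1.67 and -1.97 (± 0.25), or 3.18-fold, 3.19-fold and 3.91-fold lower. At day 7 the mean was 0.19 below the intron median, so here too the level after resection was that of background.

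Tcf21, a basic helix-loop-helix factor of lung lipofibroblasts and of the developing lung mesenchyme, stood at 3.33, 4.19 and 4.25 in intact samples, 2.70, 3.23 and 3.23 at day 1, 3.81, 2.82 and 2.65 at day 3 and 2.72, 2.40 and 2.67 at day 7. The groups were apart at day 1 by 0.10 and at day 7 by 0.61, and overlapped at day 3 through replicate 1. The differences were -0.87, -0.83 and -1.33 (± 0.32).

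Gelsolin, Gsn, which severs and caps actin filaments and is not limited to fibroblasts, stood at 7.77, 8.57 and 8.89 in intact samples. It stood at 7.57, 6.14 and 7.70 at day 1, 7.40, 7.16 and 7.26 at day 3 and 7.27, 6.81 and 7.06 at day 7. The day 1 arrays lay below the intact arrays by a gap of only 0.061, against 0.37 at day 3 and 0.50 at day 7. The differences were -1.27, -1.14 and -1.36 (± 0.38). Gsn alone exceeded the intron upper limit on all 12 arrays, so its values after resection were measured above background. Npnt exceeded it on 6 arrays, Dpt on 2, Col3a1 and Fbln1 on 1 each, and the other 5 genes on none.

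**Figure D2:**
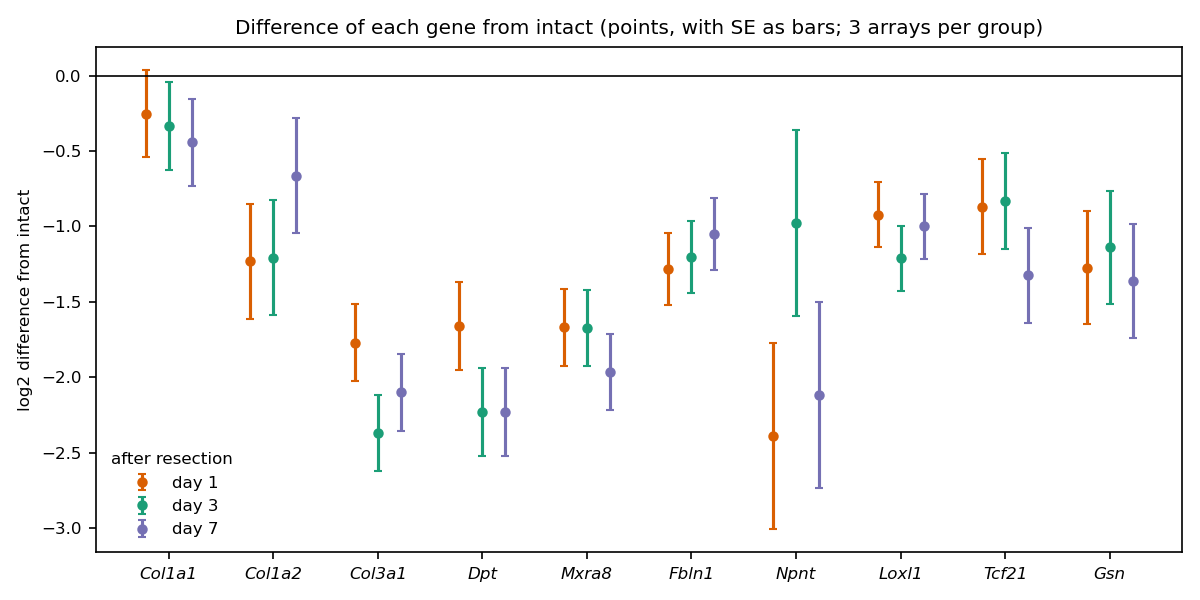
Difference of each gene from intact (log2, vertical axis) at day 1, day 3 and day 7; points are differences of group means, bars the SE of the fit, with 3 arrays per group. All points lie below 0, from -2.39 for Npnt at day 1 to -0.25 for Col1a1 at day 1.

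In the order of the 4 group means intact was first for all 10 genes, and the groups after resection took no common order. Intact was separated from the next group for Col3a1, Dpt, Mxra8, Fbln1, Loxl1 and Gsn. For Col1a1, Col1a2, Npnt and Tcf21 the intact arrays overlapped the group next to them. Among the days, the only neighbours in the order whose arrays were apart were day 1 and day 7 for Col3a1.

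The contrasts between days were not used to choose the genes, though they share the resected arrays with those that were. In limma, with Benjamini-Hochberg adjustment over all probe sets, 0 of 22206 probe sets (0%) passed an adjusted p of 0.05 in each of these contrasts. At an unadjusted p under 0.05 there were 2132 at day 3 against day 1, 1497 at day 7 against day 1 and 1138 at day 7 against day 3, or 9.6%, 6.74% and 5.12% of all, among them 2, 0 and 0 of the 10 genes. Col3a1 was lower at day 3 than at day 1 by a log2 difference of -0.60 ± 0.25 (SE), with all 3 day 3 arrays below all 3 day 1 arrays, and did not pass (limma adjusted p = 0.493); 6.24% of all probe sets showed such an arrangement. Npnt was higher at day 3 than at day 1 by 1.42 ± 0.62 and did not pass (limma adjusted p = 0.505), with the groups overlapping. At day 7 against day 1 Dpt had the smallest adjusted p of the 10 (-0.57 ± 0.29, limma adjusted p = 0.75), and the Col3a1 arrays of day 7 were below those of day 1, as for 4.66% of all probe sets. At day 7 against day 3 the smallest was that of Npnt (-1.14 ± 0.62, limma adjusted p = 0.995). The median difference of the 10 genes was 0.011, -0.14 and -0.055 in these contrasts. No difference between days was detected for these genes with 3 arrays per group, and their standard errors of 0.22 to 0.62 leave room for one.

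For the contrasts with intact, the same fit called 0 probe sets of 22206 at day 1 (0%), 1 at day 3 (0.0045%) and 4 at day 7 (0.018%). Col3a1 was the 1 at day 3, and Col3a1, Dpt and Mxra8 were 3 of the 4 at day 7, which describes why these genes were picked. At day 1, 1985 probe sets had an unadjusted p under 0.05. The number of the 10 genes called turned on single arrays. At day 3 no probe set was called when intact replicate 2 or 3, or day 3 replicate 2 or 3, was left out. Dropping intact replicate 1 gave 2 of the 10 genes, out of 2 calls among all 22206 probe sets. With day 1 replicate 2 dropped the 10 genes made up 3 of 7 calls, and with day 3 replicate 1 dropped 3 of 5. At day 7 none of the 10 was called with intact replicate 2 or 3, day 1 replicate 3 or any day 7 replicate dropped. In those fits 0 to 2 of all probe sets were called. The 10 genes made up 2 of 4 calls there when intact replicate 1 was dropped. They made up 1 of 2 calls when either day 1 replicate 1 or day 3 replicate 2 was dropped. At day 1 they were the 1 call when intact replicate 1 was dropped. They were 2 of 12 calls when day 3 replicate 1 was dropped, and 0 of 6 when day 1 replicate 3 was. Without the 3 arrays of weak control separation the counts were 4, 6 and 6 of the 10 genes, against 71 (0.32%), 252 (1.13%) and 280 (1.26%) of all probe sets. Under every setting these counts come from the contrasts known when the 10 genes were chosen. They describe that choice and are no test of the 10 genes.

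On some arrays most of the genes were high or low together. Intact replicate 1 was the lowest intact array for 9 of the 10 genes, all except Col1a1, while it was lowest for 35.6% of all probe sets. Day 3 replicate 1 was the highest day 3 array for 9 of the 10, all except Fbln1, against 38.4% of all probe sets. Day 1 replicate 3 was the highest of its group for 7 (31.6% of all probe sets) and day 1 replicate 2 the lowest for 6 (43.6%). At day 7 no array was the highest for more than 4 of the 10. The mean over the 10 genes was 4.81, 5.42 and 5.44 on the intact arrays. It was 3.82, 3.63 and 4.22 at day 1, 4.37, 3.68 and 3.66 at day 3 and 3.65, 3.89 and 3.84 at day 7. All 9 arrays after resection thus lay below the lowest intact array in this mean. Between 8 and 10 of the genes lay below their lowest intact value on each of these 9 arrays, where 26.8% to 42.1% of all probe sets did.

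Other genes of the matrix were read from 6 lists drawn up by function, with results of these data already known, and 113 of 123 genes were measured. None passed the test on any day: limma gave 0 of 113 below the adjusted p of 0.05. The smallest adjusted p was 0.27 at day 1, 0.296 at day 3 and 0.163 at day 7, the last for Serpinh1. At an unadjusted p under 0.05 there were 28 (26 lower), 22 (20 lower) and 22 (all lower) of the 113, where 8.94%, 4.46% and 5.7% of all probe sets were. The difference was below 0 for 81, 80 and 88 of the 113, and their medians were -0.25, -0.16 and -0.20. All 3 arrays lay below all 3 intact arrays for 36 (31.9%), 15 (13.3%) and 36 (31.9%) of the 113, against 8.94%, 6.68% and 8.15% of all probe sets. In the contrasts between days 0 of 113 passed. At an unadjusted p under 0.05 there were 12, 5 and 6 for day 3 against day 1, day 7 against day 1 and day 7 against day 3. The shares of all probe sets were 9.6%, 6.74% and 5.12%, so these counts were near the background rate.

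The lists differed in their medians. The 29 measured elastic fibre and matrix glycoprotein genes had medians of -0.45, -0.56 and -0.50, with 26, 27 and 26 of them below 0. Among the 3 brightest of this list, Sparc, a collagen-binding glycoprotein, averaged 8.66 ± 0.39 (SD) in intact samples, with differences of -1.60, -1.61 and -1.84 (± 0.52, SE), and Fn1, fibronectin, had differences of -0.82, -0.96 and -0.79 (± 0.25). Thbs1, thrombospondin-1, had -0.76, -0.46 and 0.23 (± 0.54). In the proteoglycan list of 12 genes the medians were -0.24, -0.34 and -0.28. Decorin, Dcn, which binds collagen I, averaged 7.29 ± 1.08 (SD) in intact samples and differed by -1.86, -1.58 and -2.52 (± 0.89, SE). Biglycan, Bgn, differed by -1.76, -1.11 and -1.31 (± 0.67) and osteoglycin, Ogn, by -1.96, -0.72 and -1.54 (± 0.77). None of these single values passed the test, and single arrays moved several of them. With 1 array left out Dcn ran from -2.71 to -0.57 and Bgn from -2.31 to -1.05 at day 1, Ogn from -1.81 to -0.11 and Bgn from -1.88 to -0.66 at day 3, and Thbs1 from -1.21 to 0.068 at day 1.

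The 18 other collagen chains had medians of 0.030, -0.062 and -0.16, with 7, 10 and 14 of them below 0, and went both ways. Among the chains of collagen VI, Col6a2 differed by -0.77, -0.44 and -0.72 (± 0.21) and Col6a3 by -0.72, -0.66 and -0.51 (± 0.23), while Col6a1 had 0.049, -0.55 and -0.38 (± 0.25). The 5 measured chains of collagen IV ran from -0.81 for Col4a3 at day 1 to 0.52 for the same gene at day 3. None of these passed. Col16a1, Col8a2 and Col13a1, the brightest of this list, had differences of 0.0072, 0.44 and -0.15 at day 1. The 23 genes of collagen folding and processing had medians of -0.23, -0.14 and -0.10. The prolyl hydroxylase subunit P4hb, the isomerase Ppib and Colgalt1, a galactosyltransferase of collagen, differed by between -0.34 and -0.10 on the 3 days. The most negative differences of this list were those of Pcolce2, an enhancer of procollagen cleavage, and Serpinh1, the collagen-specific chaperone. Pcolce2 differed by -2.01, -1.40 and -2.20 (± 0.48). Serpinh1 averaged 4.81 ± 0.44 (SD) in intact samples and 3.47, 3.38 and 3.23 at day 1, day 3 and day 7. The 18 proteases and inhibitors had medians of -0.24, -0.060 and -0.15. Mmp12, the macrophage elastase, had -1.27, 2.27 and 0.94 (± 0.77), with -2.08 to -0.29 at day 1 when 1 array was left out, Mmp19 had -0.66, -0.12 and -0.28, and Ctsk, cathepsin K, had -0.15, 0.051 and 0.069. The 13 matrix receptors had medians of -0.16, -0.031 and -0.20. Cd44, the hyaluronan receptor, and the integrin subunits Itgb1 and Itgav all lay between -0.24 and 0.23 of their intact means.

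**Figure D3:**
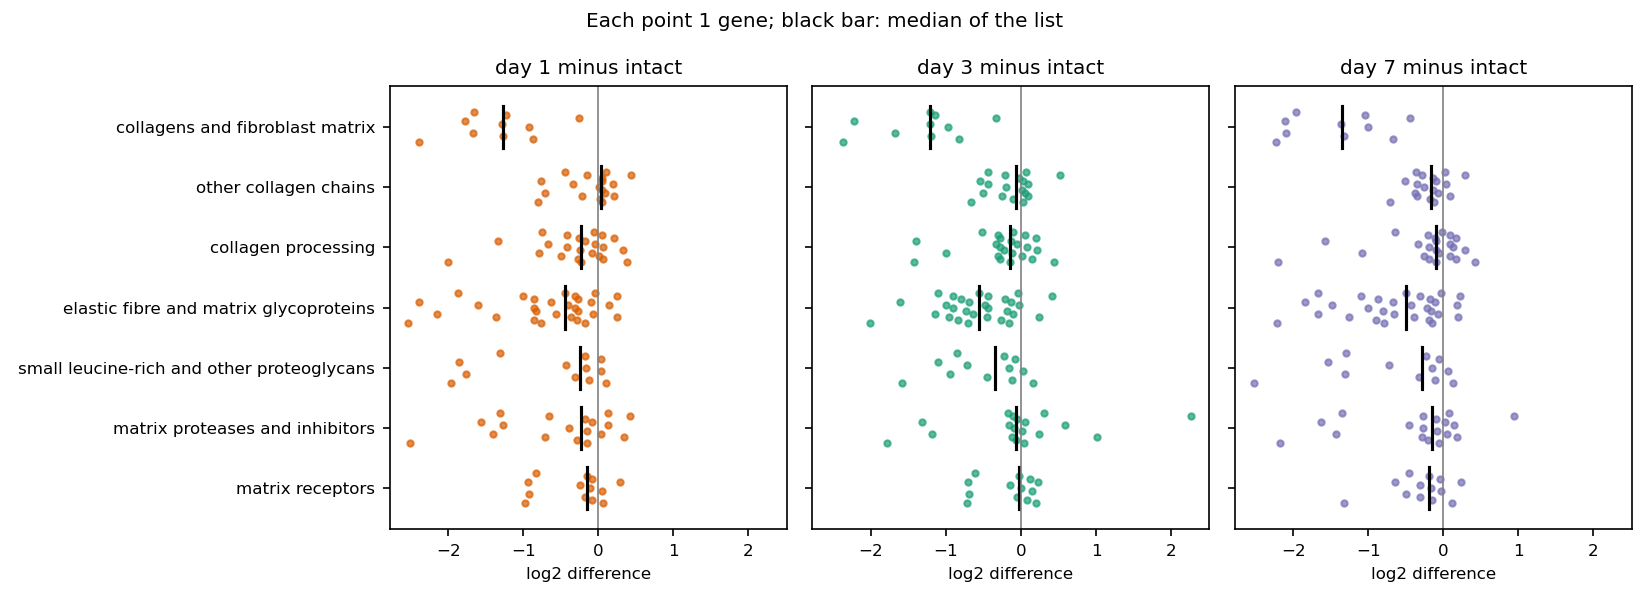
Difference from intact (log2, horizontal axis) of each measured gene of the 10 and of the 6 other matrix lists, in 1 panel per day. Each point is 1 gene and the black bar is the median of the list. The 10 genes have medians of -1.28, -1.20 and -1.34, and the elastic fibre list medians of -0.45, -0.56 and -0.50. The other 5 lists have medians between -0.34 and 0.030.

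Leaving out the 3 arrays of weak control separation moved these counts. Of the 113 matrix genes, 5 then passed at day 1 (4.42%), 16 at day 3 (14.2%) and 14 at day 7 (12.4%), against 0.32%, 1.13% and 1.26% of all probe sets. All 5 at day 1 and all 14 at day 7 were lower, and 14 of the 16 at day 3. In limma on these 9 arrays Mfap4, a microfibril-associated glycoprotein, differed from intact by -1.57 ± 0.24, -3.06 ± 0.24 and -2.40 ± 0.24 (SE; adjusted p = 0.0214, 0.000331 and 0.0013). Sparc differed by -2.31 ± 0.24 at day 3 (adjusted p = 0.00211) and -2.10 ± 0.24 at day 7 (adjusted p = 0.00294). Serpinh1 differed by -1.66 ± 0.23 (adjusted p = 0.00897) and -1.78 ± 0.23 (adjusted p = 0.00536) on those days, and Pcolce2 by -1.92 ± 0.34 (adjusted p = 0.0185) and -2.22 ± 0.34 (adjusted p = 0.00893). The proteoglycan gene Bgn also passed on both days, by -1.88 (adjusted p = 0.0153) and -1.59 (adjusted p = 0.0265), as did Ogn, by -1.81 (adjusted p = 0.0432) and -1.94 (adjusted p = 0.0271), and Dcn at day 7, by -2.62 (adjusted p = 0.0471). The metalloproteases Mmp12 and Mmp14 were the genes that were higher, both at day 3, by 2.67 ± 0.47 (adjusted p = 0.0185) and 1.53 ± 0.25 (adjusted p = 0.0146). This setting leaves 2 arrays in each group after resection. It was not planned for these genes or for the markers below.

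Markers of the cells that could have brought this RNA were read on the same arrays. Of 20 fibroblast regulators and surface markers 19 were measured. Their mean lay at 3.22 to 3.72 on the intact arrays, 3.10 to 3.32 at day 1, 3.10 to 3.52 at day 3 and 3.01 to 3.27 at day 7. Many of them were at background even in intact samples: Wnt2, Twist1, Twist2 and Fap had intact means at or below the intron median, and only 2 of the 19 had means above the intron upper limit. The brightest were Inmt, a methyltransferase abundant in lung, Foxf1, a factor of lung mesenchyme, and Serpinf1. Inmt differed by -2.11, -1.29 and -2.42 (± 0.87) and Foxf1 by -1.05, -0.78 and -1.22 (± 0.48), and Serpinf1 by -0.30, -0.035 and -0.37. None of the 19 passed on any day. Differences were below 0 for 11, 13 and 12 of them, against 51.5%, 49.7% and 51.7% of all probe sets. Single arrays moved the brightest: with 1 left out, Inmt ran from -2.71 to -1.08 at day 1 and from -1.97 to -0.76 at day 3. Without the 3 arrays of weak control separation 2 of the 19 passed, Inmt and Limch1, both lower at day 7, where 1.26% of all probe sets were called.

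Smooth muscle and pericyte markers, all 14 measured, had means of 3.16 to 3.43 on the intact arrays and 2.75 to 3.26 after resection, and none passed. Acta2, smooth muscle actin, differed by -1.26, -0.97 and -0.89 (± 0.54), Pdgfrb, the pericyte growth factor receptor, by -1.01, -1.05 and -0.79 (± 0.32) and Myl9 by -0.83, -0.26 and -0.71 (± 0.34). Myh11, which defines smooth muscle, had an intact mean of 3.36, below the intron upper limit. Without the weak arrays Pdgfrb passed as lower at day 3 and day 7, and Myl9 at day 7. The 6 mesothelial markers lay at 3.42 to 3.73 on the intact arrays and 3.32 to 3.76 after resection, and Msln and Wt1 were near the intron median. The brightest, Krt19, Upk3b and Upk1b, differed by between -0.87 and 0.25.

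Most markers of other lung cells also had lower means after resection. Of all probe sets, 51.5%, 49.7% and 51.7% had a mean below intact at day 1, day 3 and day 7. The endothelial list (9 of 10 measured) had means of 5.81 to 6.71 on the intact arrays, 3.75 to 5.64 at day 1, 4.61 to 6.07 at day 3 and 4.46 to 5.63 at day 7, and all 9 were below intact on each day. The brightest were Cdh5, at -2.02, -1.16 and -1.13 (± 0.70), Pecam1, at -1.45, -1.30 and -1.25 (± 0.58), and Kdr, at -1.85, -1.01 and -1.62 (± 0.52). The type 2 alveolar cell list (8 measured) had 6.47 to 7.04, 3.99 to 6.15, 5.34 to 6.63 and 5.10 to 5.45, also with all 8 below intact on each day. Sftpc, a surfactant protein, differed by -2.40, -1.60 and -1.76 (± 0.75), Sftpa1 by -2.08, -1.51 and -2.11 (± 0.69) and the lipid transporter Abca3 by -0.75, -0.29 and -0.38 (± 0.33). Of the type 1 alveolar cell list 6 of 7 were measured, with ranges of 5.46 to 6.05, 4.33 to 5.05, 5.30 to 6.12 and 4.74 to 5.48 in the same order. The day 3 arrays of this list overlapped the intact ones, and 6, 4 and 6 of the 6 were below intact on the 3 days. Ager had -1.70, -0.59 and -1.23 (± 0.45), Cldn18 had -2.76, -1.09 and -1.53 (± 0.68) and Pdpn had -0.60, 0.82 and -0.079 (± 0.35). The airway epithelial list (5 of 6 measured) had 6.12 to 6.94, 5.28 to 5.78, 5.15 to 5.59 and 5.05 to 5.70, with 4 of the 5 below intact on each day. Scgb1a1 had -1.10, -1.48 and -2.03 (± 0.36), Cyp2f2 had -0.64, -0.94 and -1.19 (± 0.33) and Tppp3 had -2.00, -2.18 and -1.28 (± 0.33). The neutrophil list went the other way, at 7.47 to 8.0 in intact samples and 8.30 to 9.65 after resection, with all 7 measured markers above intact on each day. Retnlg differed by 0.89, 1.14 and 1.21 (± 0.27), Lcn2 by 1.41, 1.59 and 1.34 (± 0.35) and S100a8 by 1.15, 0.93 and 1.27 (± 0.41). The 4 eosinophil markers lay at 4.10 to 5.30 in intact samples and 3.37 to 6.48 after resection. Prg2 differed by -0.89, -1.55 and -0.27 (± 0.69), Epx by -0.68, -1.53 and -0.27 (± 0.70) and Ccr3 by -0.30, 2.14 and 2.71 (± 0.48).

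On all 12 arrays 1 of these markers passed on any day against intact: Sftpd, surfactant protein D of type 2 cells, at day 7, by -1.98 ± 0.21 (limma adjusted p = 0.00965). It was lower on all 3 day 7 arrays, and did not pass without intact replicate 2, day 7 replicate 2 or day 7 replicate 3 (limma adjusted p = 0.0505, 0.0821 and 0.117). It also passed at day 1 without day 3 replicate 1 (limma adjusted p = 0.0452), and without the weak arrays at day 1 (-1.53, limma adjusted p = 0.0133) and at day 3 (-1.21, limma adjusted p = 0.0185). Without those arrays 0.32%, 1.13% and 1.26% of all probe sets were called at day 1, day 3 and day 7. The endothelial list then had 1, 7 and 8 of 9 passing and the type 2 list 1, 5 and 6 of 8. The type 1 list had 1, 1 and 2 of 6 and the airway list 1, 1 and 1 of 5. All of these were lower. The neutrophil list had 2, 2 and 4 of 7 and the eosinophil list 0, 2 and 1 of 4, all higher. Sftpd and the Col3a1, Dpt and Mxra8 calls made up the 4 probe sets called at day 7. The alveolar macrophage list lay at 9.48 to 9.73 in intact samples and 9.15 to 9.79 after resection, and none of its 12 genes passed in either fit. Its brightest, Chil3, Plet1 and Atp6v0d2, differed by between -0.20 and 0.29. Others of the list differed more: Car4 had -1.06 at day 1 and -0.87 at day 3, and at day 7 Cidec had -0.57 and Marco 0.48. Differences were below 0 for 6, 9 and 7 of the 12, against 51.5%, 49.7% and 51.7% of all probe sets. The part of any of these cells in the levels of the 10 genes was not tested.

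The lists did not move alike on day 3 replicate 1. On it 8 of the 10 genes lay below their lowest intact value, while 4 of 9 endothelial, 4 of 8 type 2, 0 of 6 type 1, 4 of 5 airway, 7 of 14 smooth muscle and pericyte, 4 of 19 fibroblast and 9 of 29 elastic fibre and glycoprotein genes did, with 32.7% of all probe sets. So did 6 of 12 alveolar macrophage, 2 of 4 eosinophil, 1 of 6 mesothelial and 0 of 7 neutrophil markers. This array also has weak control separation. The 10 genes were chosen with their differences from intact known, so their count describes that choice. On day 3 replicates 2 and 3 all 10 genes, all 9 endothelial and all 8 type 2 genes lay below their lowest intact values. What sets day 3 replicate 1 apart was not tested.

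**Figure D4:**
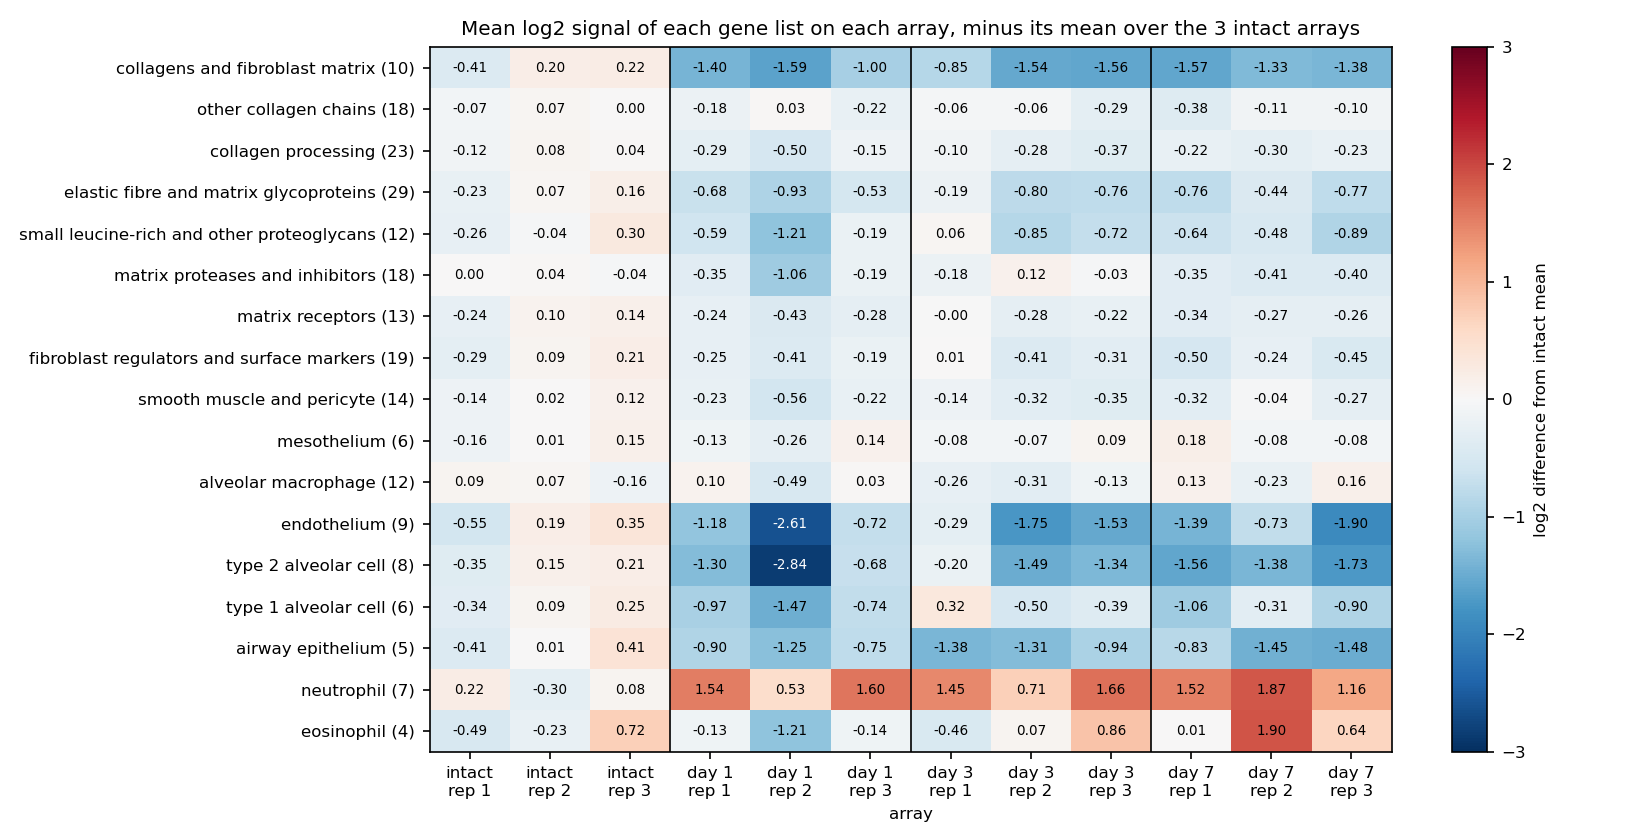
Mean log2 signal of each gene list on each of the 12 arrays minus the mean of that list over the 3 intact arrays; colour and printed number give the difference, and the number of measured genes stands beside each list. The row of the 10 genes is negative on all 9 arrays after resection, the endothelial and type 2 rows are negative on all 9 too, and the neutrophil row is positive on all 9.

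The genes nearest in pattern to the 10 were found by the root mean square difference between each gene's profile over the 12 arrays and the mean profile of the 10, each profile as log2 minus its own mean. The median of this distance over 19495 other genes was 0.70. The 8 nearest were Rtl8b at 0.17 and Rtl8a at 0.23, both retrotransposon-derived Gag-like genes, then Serpinh1 at 0.25, F3, tissue factor, and Podxl, podocalyxin, both at 0.26, and Afap1l1, Ppic and Hecw2 at 0.28 each. Rtl8b averaged 5.26 ± 0.22 (SD) in intact samples and 4.15 ± 0.24, 4.26 ± 0.29 and 4.2 ± 0.099 at day 1, day 3 and day 7. Podxl, a sialomucin of vascular endothelium, had 5.71 ± 0.23 in intact samples against 4.85, 4.98 and 4.76, and F3 had 4.32 ± 0.46 against 3.34, 3.40 and 3.14. The distance of the 10 genes from their own mean profile was 0.26 for Loxl1, 0.28 for Mxra8, 0.30 for Fbln1, 0.31 for Tcf21, 0.35 for Gsn, 0.40 for Col1a2, 0.41 for Dpt, 0.45 for Col3a1, 0.56 for Col1a1 and 0.78 for Npnt. Npnt was thus farther from the shared profile than the median gene, and Loxl1 and Mxra8 were nearest to it. The distance carries no test.

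**Figure D5:**
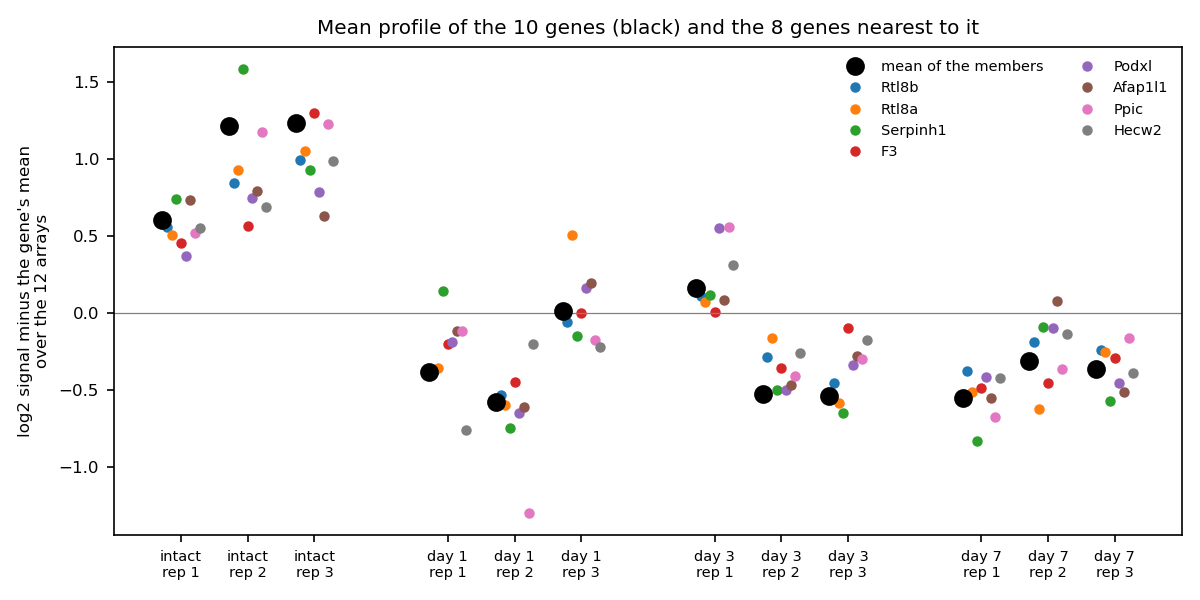
Log2 signal minus the gene's own mean over the 12 arrays (vertical axis) on each array (horizontal axis), for the mean profile of the 10 genes (large black points) and the 8 genes nearest to it (coloured points). The mean profile is 0.61 to 1.24 on the intact arrays and -0.58 to 0.16 on the 9 arrays after resection.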

How the data were processed

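RNA of Siglec-F+ alveolar macrophages was measured on 12 Clariom S mouse arrays. The authors deposited 1 log2 signal per probe set and array. Per the submitters' processing notes these came from RMA, run in Transcriptome Analysis Console. Versions and the genome build are not given in the sources used here. The log2 scale was read from the values, which were used as deposited. RMA equalises the distribution of signal over arrays, so a change shared by most genes would not show. Of 28846 probe sets, 6640 controls were left out of the tests, among them 5222 intron and 1324 exon controls, and 22206 were tested. The probe annotation named 19572 with 1 symbol. It gave no symbol to the other 2634.

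The 10 genes and all lists were chosen with earlier results of these data known. For each gene the probe set of highest mean was taken. From each other list the text names the 3 genes of highest mean and any gene with an adjusted p under 0.05, and it names the 8 genes of most similar profile. Siglecf, Pparg, Car4, Cidec, Marco, Mfap4, Mmp14, Limch1, Serpinh1 and Pcolce2 were named after their values were seen. So were the chains of collagens IV and VI and the markers near background. Listed genes without a probe set of their own symbol, such as Pdgfra, Fbn1 and Col12a1, were not analysed here.

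Groups were compared in limma 3.58.1 under R 4.3.3, in 1 fit over the 12 arrays with a mean per group and empirical Bayes moderation. Two-sided p-values were adjusted by Benjamini-Hochberg over all probe sets, with a threshold of 0.05, and the code was tested on simulated data. Each SE comes from this fit. Same-numbered replicates did not deviate together (correlations from -0.24 to 0.26 over 18 pairs), so the numbers were not used as pairs. Alternatives were median centring, quantile normalization, only probe sets above the intron median, only the groups compared, the replicate number as a block, leaving out the 3 arrays with control separation under 0.84, and leaving out each array.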

Additional observations from a re-analysis of the deposited data

Results flagged for a closer look

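The labelling controls dap, phe and thr, which no comparison of genes used, were well above their intact levels on the same 3 arrays. Control dap read 6.88 on day 3 replicate 1, 7.77 on day 7 replicate 2 and 6.47 on day 7 replicate 3, against 2.13 to 2.40 on the intact arrays. Control phe read 4.22, 5.47 and 3.80 on these arrays, against 2.11 to 2.42. Control thr read 3.64, 5.73 and 4.22, against 1.88 to 2.41. A further control, bioB, differed by group. It read 7.53 to 7.72 on the intact arrays, 8.62 to 10.29 at day 1, 7.44 to 7.83 at day 3 and 8.19 to 8.55 at day 7. Every day 1 and day 7 array thus lay above all intact arrays in bioB. On day 3 replicate 1, 9 of the 10 collagen and matrix genes had the highest value of their group. The day 7 arrays had no such order, and the part of these controls in the gene levels was not tested. Groups of 3 arrays were not examined for single outlying values.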

How the results depend on the processing

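Probe sets called against intact at day 1 numbered 0, at day 3 numbered 1 and at day 7 numbered 4. They numbered 71, 252 and 280 without the 3 arrays of weak control separation. At day 3 there were 4 after quantile normalization, 3 among probe sets above the intron median and 0 with only the groups compared. At day 7 there were 8 above the intron median and 48 with only the groups compared. With the replicate block there were 0 at day 1, 0 at day 3 and 8 at day 7, of which 2 were Col3a1 and Mxra8, and 0 between any days. Same-numbered replicates did not deviate together, but 3 arrays per group are too few to exclude a shared batch. Leaving out 1 array gave 0 to 12, 0 to 7 and 0 to 18. Between days the count of 0 became 6 at day 3 against day 1 and 4 at day 7 against day 3 without the weak arrays, and 0 to 3, 0 to 0 and 0 to 3 with 1 array left out. The cause was not tested.

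The differences of the 10 genes from intact moved by less than the residual SD in all 90 values per day from the 9 settings that can move them. All but 2 of those at day 1 (both Col1a1) were below 0. For the settings that leave out arrays this bound was nearly fixed in advance, since the residual SD includes the spread of those arrays. It therefore says little about how steady the differences are. With 1 array left out their medians lay from -1.57 to -1.10 at day 1, from -1.43 to -1.04 at day 3 and from -1.65 to -1.14 at day 7. Genes with every array below intact numbered 8 to 9, 8 to 10 and 8 to 9. The other matrix genes passing (0) numbered 5, 16 and 14 without the weak arrays and 3 at day 7 with only the groups compared, and 0 to 1 at day 1 and 0 to 0 in every other contrast when 1 array was left out.

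Between days none of the 10 genes passed under these settings, and several turned in sign. At day 3 against day 1 the median of the 10 became -0.43 without the weak arrays, with Col1a2 at -0.48, Tcf21 at -0.23 and Gsn at -0.43, and Mxra8 became 0.038, Fbln1 -0.014 and Gsn -0.067 after quantile normalization. At day 7 against day 1 Col1a2 went from 0.57 to -0.035 and Npnt from 0.28 to -0.33 without the weak arrays. At day 7 against day 3, without the weak arrays, Col1a1 became 0.026 and Dpt 0.23, and Dpt was 0.037 after median centring and 0.048 after quantile normalization. With 1 array left out the median ran from -0.25 to 0.11, from -0.25 to -0.014 and from -0.20 to 0.051 in these contrasts. Single genes then ran at day 3 against day 1 from -0.38 to 0.097 (Col1a1), -0.24 to 0.37 (Col1a2), -0.28 to 0.23 (Mxra8), -0.066 to 0.25 (Fbln1), -0.32 to 0.26 (Tcf21) and -0.37 to 0.42 (Gsn). They ran at day 7 against day 1 from -0.50 to 0.060 (Col1a1), -0.11 to 0.67 (Npnt), -0.26 to 0.031 (Loxl1) and -0.59 to 0.19 (Gsn). They ran at day 7 against day 3 from -0.42 to 0.14 (Col1a1), -0.22 to 0.24 (Dpt) and -0.043 to 0.26 (Fbln1). The mean of all probe sets of a gene was not run separately, since each gene had 1. Genes near the intron level, such as Loxl1 and Mxra8 after resection, have differences limited by background.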
